A study of Pilatotrama ljubarskyi with 14 samples.

Results

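Gene expression of the white-rot fungus Trametes ljubarskyi on ground aspen wood was set against its expression on ground wheat straw. The genes described are the 850 of 878 in the deposited table (96.8%) whose mean level was at least 4 on aspen or on wheat straw. A level is the authors' mean log2 normalized read count, which fitted a mean over libraries of log2(normalized reads + 1). Strain BRFM1659 was grown for 3 days at 30 °C in shaken liquid cultures, and polyA RNA of the mycelium was sequenced in 3 libraries for aspen and 3 for wheat straw. The other 8 of the 14 libraries came from cultures on pine (2), on microcrystalline cellulose (3) and on maltose alone (3). The aspen cultures held 15 g/l of wood milled to 1 mm together with maltose, whose amount could not be read in the labels. The wheat straw cultures held 15 g/l of straw sifted below 2 mm together with 2.5 g/l of maltose. Plant material, particle size and any difference in maltose therefore cannot be told apart. The labels do not say whether libraries of 1 substrate came from separate cultures, so the p-values below measure only the spread between libraries, which may be technical.

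White-rot fungi secrete enzymes that act on cellulose, hemicelluloses and lignin, and the set of secreted enzymes is known to change with the plant polymer offered. Aspen is a hardwood, whose walls hold cellulose, acetylated glucuronoxylan and a lignin rich in syringyl units. Wheat straw is a grass stem, whose walls hold cellulose, arabinoxylan esterified with ferulic acid, and a lignin that carries p-coumarate. The deposited table lists JGI MycoCosm gene numbers without names or functions, so none of the genes below is assigned to these enzymes, and 4 are printed by number.

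The rule left out 28 genes (3.19%), whose levels lay below 4 on both substrates; 13 of them had a level of at least 4 on maltose and 4 on cellulose. The gene just inside had a larger level of 4.02, and the one just outside 3.99. Of the 850 genes, 825 reached 4 on both substrates, 16 on aspen only and 9 on wheat straw only. Levels ran from 0.97 to 16.85 on aspen, with a median of 9.26, and from 2.28 to 16.76 on wheat straw, with a median of 9.43. The depth of a library is known only relative to the others, from factors recovered together with the reads. It was 1.30, 1.07 and 1.04 for aspen libraries A, B and C, and 1.10, 1.05 and 0.761 for wheat straw libraries A, B and C. Reads of single libraries were recovered for 754 of the 850 genes on aspen, for 734 on wheat straw and for 710 on both. These 710 genes took 621812 to 758678 reads in an aspen library and 602047 to 865790 in a wheat straw library. The other 140 genes all had a level above 11 on at least 1 of the substrates. The standard error of every gene, here and below, pools the spread of all substrates with recovered reads. It is thus not the error of the aspen and wheat straw libraries alone. For these 140 genes, aspen, wheat straw or both add nothing to it.

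Aspen and wheat straw gave broadly similar profiles, with a shift towards lower levels on aspen in the deposited means that changed sign under another scaling. The deposited means correlated across the 850 genes with a Pearson r of 0.951 and a Spearman rho of 0.953. Among the 710 genes with reads on both, r was 0.987 to 0.991 between aspen libraries, 0.986 to 0.994 between wheat straw libraries, and 0.916 to 0.935 between an aspen and a wheat straw library. These coefficients run over genes and do not count as replication. The level on aspen was below that on wheat straw in 513 genes and above it in 337. The median difference, aspen minus wheat straw, was -0.18 on the log2 scale. It was -0.0787 with each library shifted by its median deviation from each gene's mean over all libraries. In the 651 genes with reads in every library it was 0.0505 after quantile normalization, against -0.0938 with the deposited scaling. The middle 50 percent of genes lay between -0.80 and 0.32, and the extremes were -4.26 and 3.30. A difference under 0.5 was found in 394 genes (46.4%).

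A gene was called when the adjusted p of limma was under 0.05 and the log2 difference was at least 1 in size, that is a 2-fold change. On the raw scale 53 genes were higher and 148 lower on aspen, so that 201 of 850 genes changed; over all 867 genes tested 23.4% were called, 6.23% higher and 17.2% lower. The members make up nearly all of the tested genes, and their shares of 6.24% higher and 17.4% lower are close to this background. With the median difference of -0.18 taken off, 72 genes were higher and 113 lower, against backgrounds of 8.54% and 13.1%. Higher genes made up 26.4% of the calls on the raw scale and 38.9% after removal of the median. All 53 genes called higher and 113 of the 148 called lower on the raw scale kept their call after the removal, while 35 lower genes lost it and 19 higher genes were gained. Other scalings gave splits more even than the raw one, to differing degrees. With each library shifted by its median deviation from the gene means, 59 genes were higher and 132 lower. Quantile normalization of the 651 genes with reads in every library gave 68 higher and 77 lower before the median was removed. The deposited scaling of the same genes gave 48 and 94. After removal of the median these splits were 59 and 85 with quantile normalization and 51 and 88 with the deposited scaling. Removal of a trend of the difference with the level, chosen after the data were seen, gave 76 higher and 102 lower. More genes were lower than higher under each of these scalings, but the excess depends on them.

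**Figure D1:**
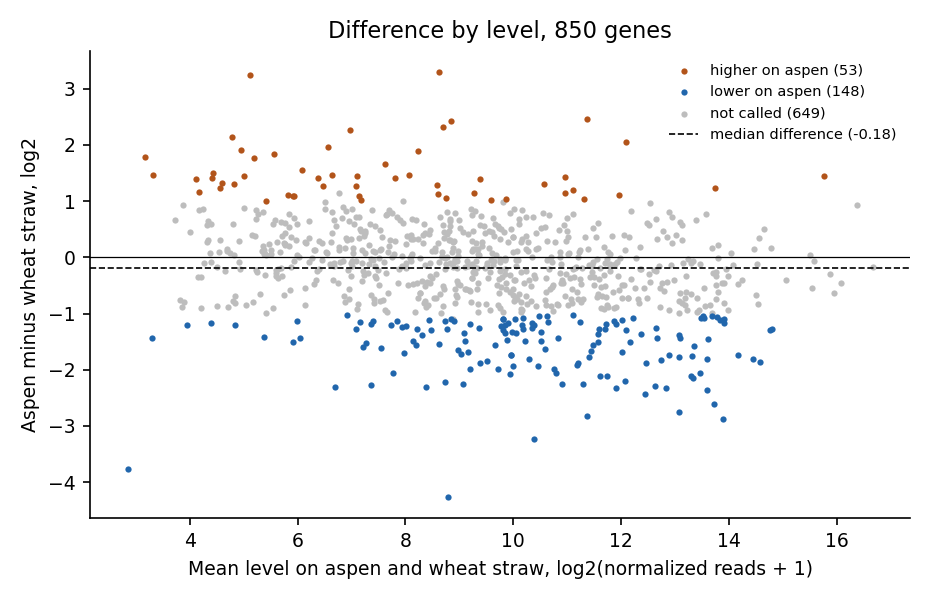
Each point is 1 of the 850 genes, with its mean level on aspen and wheat straw (log2) on the x axis and the raw log2 difference, aspen minus wheat straw, on the y axis. The 53 genes called higher and the 148 called lower are coloured, and the dashed line is the median difference of -0.18; the blue points grow denser towards high levels.

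Most differences were moderate. The 53 genes called higher on the raw scale had a median difference of 1.40, and the 148 called lower had one of -1.45. A difference of at least 4-fold was called in 36 genes, 8 higher and 28 lower on aspen (background 4.27% in both directions together). After removal of the median it was called in 32 genes, 12 higher and 20 lower (background 3.81%). Only 2 genes differed by at least 1 on the log2 scale without passing the test, with a median standard error of 0.477, against 0.179 over all 850. Without a limit on the size, 463 of the 850 genes had an adjusted p under 0.05 in limma. The share over all tested genes was not counted at this limit. In the 710 genes with reads on both substrates, all 3 aspen libraries lay above all 3 wheat straw libraries in 202 genes and below them in 294, against backgrounds of 28.1% and 40.9% of the tested genes; in 214 genes the groups overlapped. With the median difference of the 850 genes removed, the aspen libraries lay above in 266 genes and below in 237. The shares of all tested genes were not counted for this case. The 710 genes had a median difference of their own of -0.115, smaller in size than the one removed. The removal thus moves these genes upward on aspen, and no conclusion is drawn from the change of sides. Every one of the 49 higher and 105 lower genes called among the 710 had libraries that did not overlap. The calls rest on the same library values, so this adds no separate support.

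Gene 1053041 had the largest rise on aspen. It had 1997, 1156 and 1200 reads in aspen libraries A, B and C, against 136, 102 and 125 reads in wheat straw libraries A, B and C. The groups lay far apart, with levels of 10.58, 10.07 and 10.18 on aspen and 6.96, 6.62 and 7.37 on wheat straw. The raw log2 difference was 3.30 ± 0.20 (SE, n = 3 each; limma adjusted p = 2.96e-07), and the depth-scaled ratio of reads was 10.2 (exact 95% interval 9.19 to 11.4, counting error only). Over all substrates its level was highest on aspen, at 10.28 ± 0.27 (SD, n = 3), followed by pine with 10.02 ± 0.0046 (SD, n = 2), which lies within 1 SD of the aspen mean but below each of the 3 aspen libraries. Maltose followed with 9.03 ± 0.05 (SD, n = 3), then cellulose with 7.58 ± 0.29 and wheat straw with 6.98 ± 0.38 (SD, n = 3 each).

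Gene 962148 was most abundant on the 2 woods. It had 162, 110 and 97 reads in the aspen libraries, against 12, 10 and 8 reads in the wheat straw libraries, with no overlap. Its raw log2 difference was 3.24 ± 0.40 (SE, n = 3 each; limma adjusted p = 2.23e-05), and the depth-scaled ratio was 10.5 (exact 95% interval 7.23 to 15.8, counting error only). The aspen level was 6.74 ± 0.21 (SD, n = 3), and the wheat straw level was 3.50 ± 0.09 (SD, n = 3). The gene was under 4 on wheat straw and met the rule through aspen only. On pine its level was 7.75 ± 0.12 (SD, n = 2), with 193 and 147 reads. On cellulose it had 4, 6 and 7 reads, and on maltose 5, 1 and 6, so that both of these lay below wheat straw in level, at 2.58 and 2.14.

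Gene 970997 had the largest fall on aspen. It had 104, 127 and 111 reads in the aspen libraries, against 2321, 1784 and 1543 reads in the wheat straw libraries. No aspen library came near a wheat straw library, and the raw log2 difference was -4.26 ± 0.28 (SE, n = 3 each; limma adjusted p = 4.53e-07). The depth-scaled ratio was 0.0517 (exact 95% interval 0.0462 to 0.0576, counting error only). Aspen stood apart from every other substrate for this gene. Its level was 6.66 ± 0.29 on aspen (SD, n = 3), against 10.92 ± 0.16 on wheat straw, 10.87 ± 0.11 on pine (SD, n = 2), 11.20 ± 0.13 on cellulose and 12.06 ± 0.76 on maltose (SD, n = 3 for the others). Wheat straw and pine differed by less than the spread of the wheat straw libraries.

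Gene 964651 was a gene of few reads. It had 0, 3 and 1 reads in the aspen libraries, against 54, 5 and 48 reads in wheat straw libraries A, B and C. Wheat straw library B lay far below the other two. The groups did not overlap, but aspen library B, at a level of 1.92, came close to wheat straw library B, at 2.53. The raw log2 difference was -3.76 ± 0.93 (SE, n = 3 each; limma adjusted p = 0.00395), and it was -4.86 without wheat straw library B. The depth-scaled ratio of summed reads was 0.0319 (exact 95% interval 0.00854 to 0.0841, counting error only), and the fitted difference depends on the 1 added inside the logarithm. It was also low on pine, with 3 and 1 reads, and on maltose, with 0, 4 and 0, and had 19, 3 and 8 reads on cellulose. Wheat straw thus gave its highest level, 4.72 ± 1.91 (SD, n = 3). The gene met the rule through wheat straw only, with a level of 0.97 on aspen.

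**Figure D2:**
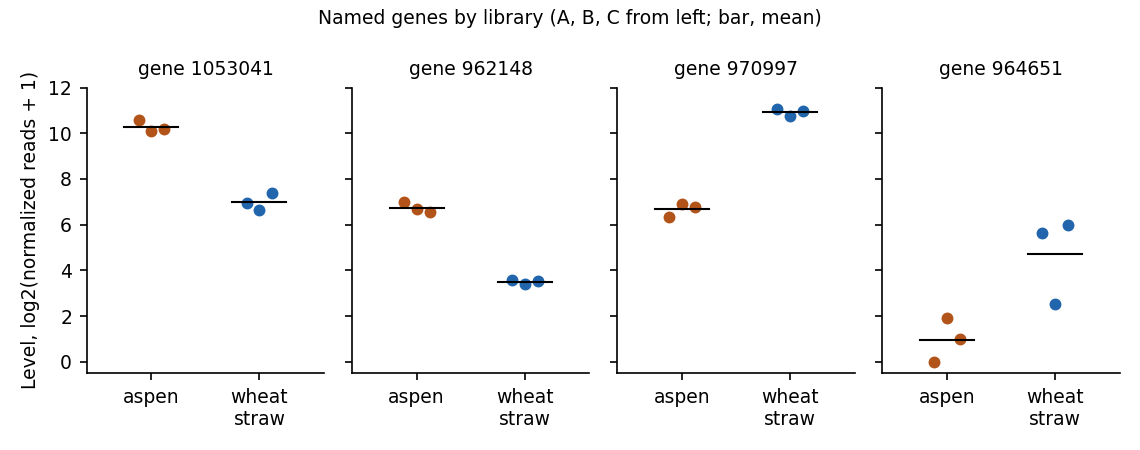
The level of each named gene, log2(normalized reads + 1), is plotted for libraries A, B and C (left to right) on aspen and on wheat straw, with the mean as a bar. Genes 1053041 and 962148 lie higher on aspen and gene 970997 lower in every library, while wheat straw library B of gene 964651 lies at 2.53, near aspen library B.

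The direction of the difference went with the level of the gene. For the genes with a mean level on the 2 substrates of at most 8, the median difference was 0.09, and 31 of 268 were called higher and 24 lower on the raw scale. Above a level of 10 the median difference was -0.47, and 10 of 343 genes were called higher and 83 lower. The share with a lower level on aspen was 37.6% up to level 6, then 47.0%, 59.8%, 71.5% and 79.8% in classes of 2 log2 units up to level 14, and 69.2% of the 26 genes above 14. In the class of level 12 to 14, 37 of 124 genes were lower (29.8%) and 2 higher, with a median difference of -0.63. In the class up to level 6, 8 of 117 were lower (6.84%) and 19 higher (16.2%), with a median difference of 0.14. On the raw scale, 11 of the 16 genes that reached 4 on aspen only were called higher. Of the 9 that reached 4 on wheat straw only, 4 were called lower. Genes of both kinds lie in the class up to level 6 and met the rule only where they are high. The counts of this class are thus partly set by the rule. Removal of 1 median for all genes kept the pattern over levels, with 43 higher and 18 lower genes up to level 8 and 14 higher and 61 lower genes above level 10. Whether the scaling of the deposited columns takes part in this trend was not tested. Recovery of reads also depended on the level: 33.6% of the 140 genes without reads on both substrates were called on the raw scale, 43 lower and 4 higher, against 21.7% of the 710 others.

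**Figure D3:**
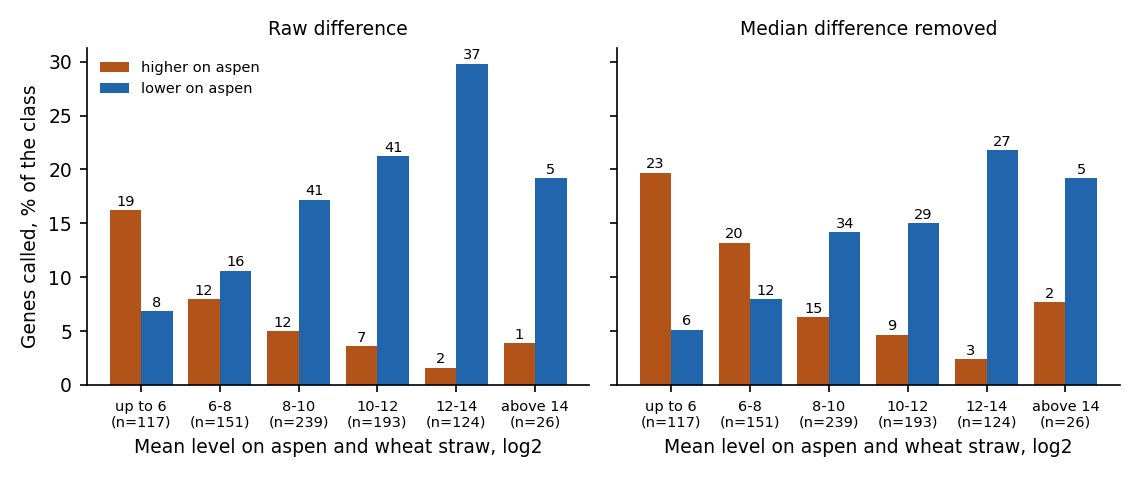
Bars give the percentage of genes called higher (left bar) and lower (right bar) on aspen in classes of the mean level on aspen and wheat straw (log2), on the raw scale and after removal of the median difference, with the number of genes called above each bar. Higher genes fall from 16.2% to 1.61% and lower genes climb from 6.84% to 29.8% between the lowest class and level 12 to 14 on the raw scale.

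The most abundant transcripts were partly exchanged. Of the 50 genes with the highest level on aspen, 34 were also among the 50 highest on wheat straw, which is 68.0% of each list. Among the 66 genes in either list, 2 were called higher and 22 lower on aspen on the raw scale, and 3 and 16 after removal of the median. Over all tested genes the shares were 6.23% and 17.2% on the raw scale, and 8.54% and 13.1% after removal. In the class of level 12 to 14, 29.8% were lower on the raw scale, and above level 14 it was 19.2%. The 22 of 66 lie somewhat above both shares, and no comparison matched for level was made. The 26 genes with a mean level above 14 had differences between -1.86 and 1.45.

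The spread between libraries was similar on both substrates. Over the 710 genes, the median SD of the 3 libraries was 0.128 on aspen and 0.130 on wheat straw, and it was larger on aspen in 330 genes (46.5%). The SD was largest at low levels, with medians of 0.220 on aspen and 0.292 on wheat straw for genes up to level 6. It was smallest at levels of 8 to 10 on aspen, with 0.104, and at 12 to 14 on wheat straw, with 0.0840. In this last class the aspen median was 0.142, over 60 genes with reads on aspen and 41 on wheat straw.

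The other substrates, whose libraries take no part in the difference but enter its standard error, show where the changed genes are otherwise expressed. The classes used from here on are those after removal of the median. The 72 genes higher on aspen had median levels of 7.76 on aspen, 6.59 on wheat straw, 7.53 on pine, 6.90 on cellulose and 7.42 on maltose. The 113 genes lower on aspen had medians of 9.49 on aspen, 10.99 on wheat straw, 10.55 on pine, 10.97 on cellulose and 9.59 on maltose. These medians are over genes chosen by their aspen and wheat straw levels, and do not give the distance between substrates gene by gene. The 665 genes not called had medians between 8.95 on maltose and 9.46 on cellulose.

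**Figure D4:**
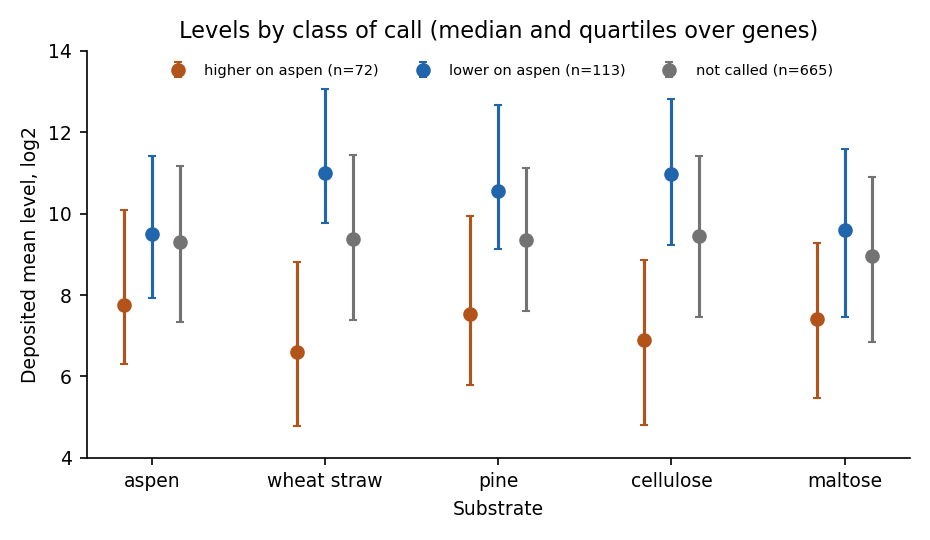
Points are medians and bars run from the first to the third quartile over genes of the deposited mean levels (log2) on each substrate, for the 72 genes higher on aspen, the 113 lower and the 665 not called after removal of the median difference. The lower genes have medians of 9.49 and 9.59 on aspen and maltose, and of 10.99 and 10.97 on wheat straw and cellulose.

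Genes lower on aspen than on wheat straw were often those with more reads on cellulose than on maltose. Of the 113 lower genes, 59 (52.2%) were called higher on cellulose than on maltose and 11 (9.73%) lower, where the comparison of cellulose with maltose called 26.0% of all tested genes higher and 16.7% lower. Of the 72 higher genes, 6 (8.33%) were higher and 28 (38.9%) lower on cellulose. Seen from the other list, 59 of the 224 genes higher on cellulose (26.3%) were lower on aspen than on wheat straw and 6 (2.68%) higher. Of the 136 genes lower on cellulose, 11 (8.09%) were lower and 28 (20.6%) higher on aspen. Over all tested genes, 13.1% were lower and 8.54% higher on aspen. Because both kinds of genes differ in level, the shares were also taken within levels. Above level 10, 59.0% of the 61 genes lower on aspen were higher on cellulose than on maltose, against 38.1% of the 268 not called. Up to level 10 the shares were 44.2% of 52 and 14.4% of 397. The 4 substrates in these 2 comparisons share no library, and the shares are a description without a test.

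The genes with the largest rise on cellulose were looked at separately. A rise of at least 5 on the log2 scale on cellulose relative to maltose, a limit chosen after the values were seen, was found in 50 of the 850 genes. Between aspen and wheat straw, limma called 4 of these 50 lower and 0 higher after removal of the median, and 9 lower and 0 higher on the raw scale. Over all tested genes, 13.1% were lower and 8.54% higher after removal, and 17.2% and 6.23% on the raw scale, so that the 9 lower genes are near the background. At an unadjusted p under 0.05 and any size, 13 of them were higher after removal of the median and 6 on the raw scale. At the stricter limit of an adjusted p under 0.05 in limma and any size, 218 of all 850 genes were higher after removal. On the raw scale 151 were. The general share at the unadjusted limit was not counted by direction and cannot be smaller. The 6 thus lie below it, and the 13 are not placed against it. With the median removed, the differences of the 50 genes ran from -2.04 to 0.98, with a median of 0.10.

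**Figure D5:**
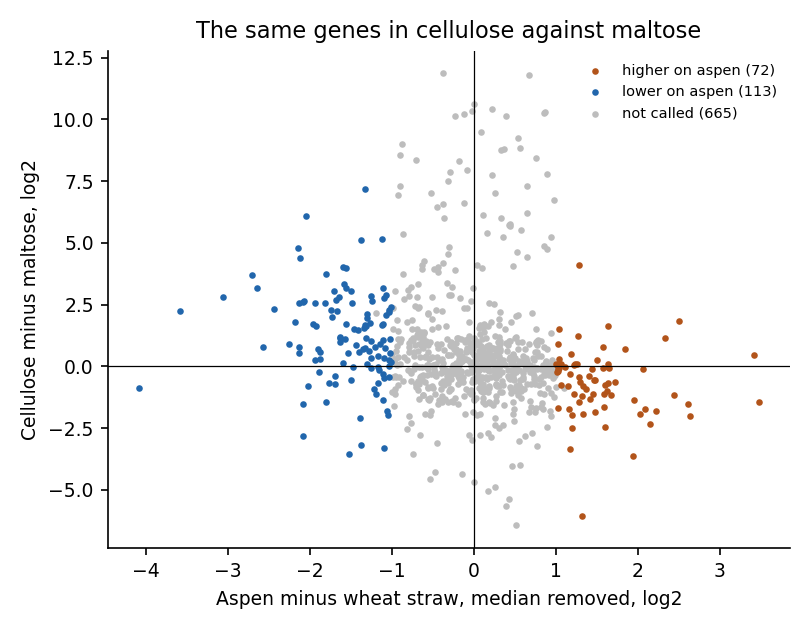
For each of the 850 genes the log2 difference, aspen minus wheat straw, with the median removed (x axis) is plotted against the log2 difference, cellulose minus maltose (y axis), coloured by the call between aspen and wheat straw. Most of the 113 lower genes lie above 0 on the y axis (median 1.09) and most of the 72 higher genes below it (median -0.59), while the points above 5 lie mainly near 0 on the x axis.

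Pine, the other wood, lay nearer to wheat straw than to aspen in most genes not called. Levels were taken relative to each gene's mean over the 5 substrates, and the median of each column was then removed. Pine was nearer to aspen than to wheat straw in 42 of the 72 genes higher on aspen (58.3%). It was so in 47 of the 113 lower (41.6%) and in 269 of the 665 not called (40.5%). The share among the higher genes was 66.7% with the deposited columns as they stand. Relative to cellulose, pine was called higher in 28 of the 72 higher genes (38.9%) and in 19 of the 113 lower ones (16.8%), where it was called higher in 14.1% of all tested genes. Pine was called lower than cellulose in 4 of the 72 (5.56%) and in 33 of the 113 (29.2%), against 16.8% of all tested. Relative to maltose, pine was called higher in 25 of the 72 (34.7%) and in 50 of the 113 (44.2%), where the share of all tested genes was 29.5%. It was called lower than maltose in 18 of the 72 and in 14 of the 113 (12.4%), against 18.0% of all tested. Over the 850 genes, the median size of the difference after removal of the median was 0.55 between aspen and wheat straw, 0.54 between aspen and pine, and 0.43 between pine and wheat straw. For wheat straw and cellulose it was 0.35, and for aspen and cellulose 0.70. Maltose was farther from both, with 0.90 for aspen (Pearson r = 0.639 across genes) and 0.92 for wheat straw (r = 0.654).

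Ranked over the 5 substrates, 35 of the 72 higher genes (48.6%) had their highest level on aspen, 17 on pine and 17 on maltose. Of the 113 lower genes, 57 (50.4%) had their lowest level on aspen and 50 on maltose. For their highest level, 46 of the lower genes were on wheat straw, 32 on cellulose, 19 on maltose and 16 on pine. Among the 850 genes as a whole, aspen gave the highest level in 122 (14.4%) and the lowest in 223 (26.2%), and wheat straw the highest in 122 and the lowest in 90 (10.6%). The choice of the genes by their difference fixes part of these ranks.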

How the data were processed

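RNA-seq of 14 libraries was deposited as 1 table of 878 genes, with 1 column of log2 normalized read counts for each substrate according to its header. TopHat2, HTSeq and DESeq 1.5 appear in the submitters' processing notes. How the authors set and scaled these steps, averaged libraries and chose the genes was not stated. Members and lists were chosen with earlier results of these data known, and lists of enzyme families could not be applied to unnamed genes.

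The deposited log2 means fitted means of log2(count × factor + 1). Factors came from low values and were kept when they also solved 12 of 12 other low values of the substrate. This was the condition for keeping them and not a separate check. They were then refined on recovered low values. Whole counts were accepted where exactly 1 set gave the value of 15 significant digits within rounding, searched up to level 13 (pine at all levels) with limits on the spread between libraries. Of 4390 values, 3949 (90.0%) were recovered, 367 were too high, 68 had several solutions and 6 none. Of decoy values on aspen and wheat straw, 2 of 240 up to level 11 and 23 of 160 above gave a single set. On simulated data 0 sets were wrong. That search was given the true factors, so a wrong single set was hardly possible unless the true one lay outside the search limits. Libraries carry letters by increasing factor, since nothing ties them to numbered replicates.

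Differences are of deposited means. Their error came from recovered libraries of all substrates through limma 3.58.1 (R 4.3.3) with a mean-variance trend, two-sided, with Benjamini-Hochberg adjustment over 867 genes with a level of at least 4 in at least 2 libraries; residual degrees of freedom were 1 to 9. Tested on simulated data for aspen against wheat straw (867 genes), 98 of 100 genes with a log2 change of 2, 46 of 100 with a change of 1 and 2 of 667 unchanged genes were called. A true change of 1 lies on the fold limit itself, so the 46 is largely set by that limit. Alternatives covered the filter, pseudocount, scaling, fold limit and single libraries. Named genes are the 2 called genes with the largest raw rise and the 2 with the largest fall among those with reads recovered in every aspen and wheat straw library and more than 3 reads summed over each substrate. Python 3.11.15, NumPy 2.4.6, numba 0.67.0 and SciPy 1.17.1 were used.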

Additional observations from a re-analysis of the deposited data

How the results depend on the processing

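The 4 named genes kept direction and call in every alternative in which they were tested. Differences ran from 3.12 to 3.65 for gene 1053041 (adjusted p at most 9.54e-06 in limma), from 2.64 to 3.35 for gene 962148 (at most 0.000239), from -4.37 to -4.09 for gene 970997 (at most 1e-05) and from -4.86 to -2.02 for gene 964651 (at most 0.026). The value of -2.02 came with a pseudocount of 8. Gene 964651 was not tested with a level of at least 6 as filter. Without any 1 aspen or wheat straw library, 150 to 187 genes were called on the raw scale and 145 to 177 after removal of the median, over 734 or 754 genes, since genes without recovered reads drop out. With all libraries kept, the 754 genes gave 180 and 171 calls and the 734 genes 158 and 151. With the fold limit dropped, 151 genes were higher and 312 lower on the raw scale (463 in all). After removal of the median the counts were 218 and 258 (476). Neither was set beside a share over all tested genes, which was not counted. The share of lower genes called higher on cellulose than on maltose was then 39.1%, and that of higher genes with pine nearer to aspen 38.5%. A fold limit of 4 gave 8 higher and 28 lower (36), and 12 and 20 (32) after removal. In the 651 genes with reads in every library 94 genes were lower on the raw scale, and 77 after quantile normalization, when pine was nearer to aspen in 45.8% of the higher genes. Fewer genes tested is part of both. The median difference was -0.213 over genes with a level of at least 6 and -0.115 over the 710 with reads on both substrates, against -0.181; genes of high level are left out of the last. It was -0.0787 with each library shifted by its median deviation from the gene means. Quantile normalization turned it to 0.0505 in the 651 genes, against -0.0938 with the deposited scaling. The excess of genes with all aspen libraries below (294 against 202 above) also turned round with the median removed (237 against 266). The median removed, that of the 850 genes, was larger in size than the -0.115 of the 710 genes counted. No conclusion is drawn from the turn, and the shares of all tested genes after removal were not counted. Spread taken only from values up to level 11, where false sets of reads were rarer, gave 200 and 184 calls. The median standard error was 0.289 up to level 6, against 0.142 at levels of 10 to 12; the part of depth in this was not tested. No paired analysis was possible because the columns carry no replicate numbers.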
